A study of Arabidopsis thaliana with 20 samples.

Results

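The genes described here are those whose array signal was strong in every column of the data. The genes were chosen by their deposited intensities: every row of the table was ranked within each of the 20 columns, and a row was kept if it lay in the top 20% in all 20 columns and listed exactly 1 gene. Of 692 rows with a single gene, 56 met this, and 9 of those were left out by name: the photosynthesis genes PSAN, PSBW, PSBY, LHCB1.5 and NdhS, the chlorophyll synthesis gene CHLP, and XERICO, CCL and CUTA. This left 47 genes. Because the levels themselves chose these genes, their brightness is a description and was not tested.

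Total RNA of Arabidopsis thaliana, ecotype Columbia-0, was measured on an array in 10 columns labelled wild type (WT) and 10 labelled atpc1-1. The labels describe atpc1-1 as a mutant without the γ subunit of the ATP synthase, and both genotypes were grown on MS medium, a mineral salt medium for plant culture. The row that lists ATPC1 also lists ATPC2, so it was not used to check the mutant. Age, tissue and light were not given in the sources used here. Columns of adjoining numbers (1 and 2, 3 and 4, and so on) were averaged on the log2 scale, so that each genotype had 5 replicates. The reason was that each of the 20 columns resembled its partner more than any other column of its genotype. Over 1761 rows, deviations from the genotype mean correlated between partners at 0.351 to 0.868 in WT. In atpc1-1 the likeness was weak for columns 1 and 2 (0.0491), 5 and 6 (0.025) and 7 and 8 (0.0739). Over the 47 genes it was 0.595 to 0.935 in atpc1-1. The labels do not say whether different plants were used for each replicate, and the p-values below therefore reflect a spread that could be technical.

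The chloroplast ATP synthase lets protons flow back across the thylakoid membrane and uses them to make ATP for carbon fixation. Its γ subunit is the rotating shaft that joins the membrane ring to the catalytic head, and it is encoded in the nucleus as ATPC1. Most chloroplast proteins are likewise encoded by nuclear genes, translated in the cytosol and imported, and in green tissue the transcripts of photosynthesis genes are among the most abundant.

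Brightness on an array is not abundance alone, since the length, composition and cross-hybridisation of a probe also set its signal. The ranks below therefore give the position of a spot within its column, and comparisons are made for the same spot between genotypes. In bulk RNA, fewer cells of a type and less RNA per cell cannot be told apart.

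The columns of the genotypes differed as a whole. WT columns had median intensities between 0.339 and 0.493, and atpc1-1 columns between 0.130 and 0.224. The low WT medians, 0.339 and 0.347, were both of replicate 5, and the other 8 WT columns lay at 0.451 or above. Rows at 0 made up between 3.63% and 4.36% of a WT column and between 5.70% and 20.8% of an atpc1-1 column. Replicate 2 gave the low atpc1-1 shares, 5.70% and 6.48%, and the other 8 columns lay at 11.2% or above. A row entered the top 20% at an intensity between 0.887 and 1.13 in WT and between 0.531 and 0.635 in atpc1-1. The 330 rows of any annotation that were bright in all columns made up between 49.3% and 61.3% of a WT column's total intensity and between 69.3% and 77.2% of an atpc1-1 column's, whereas the 47 genes made up 7.13% to 8.09% and 6.83% to 9.14%. The columns of WT replicate 5 held the highest WT shares of the 330 rows, 61.1% and 61.3%, against at most 54.0% in the other WT columns. Rows with a single gene were about as often bright in all columns (8.09%) as rows with several genes (9.08%) or with none (10.4%). Of 10 single-gene rows on a list of light reaction and thylakoid assembly genes, 5 were bright in all columns, among them PSBW and LHCB1.5. Mean percentiles over that list ran from 9.88 to 99.8. Of 4 rows for pigment and tetrapyrrole enzymes, 1 was bright in all columns. None of 3 rows for AGAMOUS-like genes (AGL103, AGL26 and AGL54) was bright in all columns, with mean percentiles between 16.9 and 70.0. Nothing about tissue is read from these lists.

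None of the 47 genes was on the list of light reaction genes, whose bright members were all left out by name. RefSeq carries a symbol for 5 of them (ATSPS4F, ATSIK, FZL, MAMI and chr31) and only a locus tag for 42. A role could be given to 33, for 6 from the names in RefSeq's table and for 27 from general knowledge of Arabidopsis, and 14 are left without one. By these roles 7 genes act in RNA handling and gene expression, 5 in protein folding and turnover, 4 are protein kinases and 4 other enzymes. A further 3 act in carbon metabolism, 3 are glycosyltransferases or secreted proteins, 3 are built of protein interaction repeats, 2 are mitochondrial and 2 act on membranes.

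AT4G31530, which encodes a Rossmann-fold protein of the kind that binds NAD(P), was the brightest of the 47 in all 10 replicates. Its intensity was 86.2, 68.2, 81.6, 72.2 and 38.6 in WT replicates 1 to 5 and 70.0, 54.5, 73.4, 85.6 and 80.5 in atpc1-1 replicates 1 to 5. The genotypes overlapped fully, and only WT replicate 5 lay below all others.

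AT2G27290, AT4G17070 and AT3G09850 took the next 3 places in both genotypes. AT2G27290 stood at 20.2, 30.5, 34.1, 30.9 and 27.5 in WT and at 19.2, 16.7, 24.4, 33.5 and 36.9 in atpc1-1. AT4G17070, a peptidyl-prolyl isomerase, which helps proteins fold, stood at 13.5, 26.8, 27.2, 21.0 and 23.1 in WT and at 13.4, 18.7, 26.1, 27.9 and 17.5 in atpc1-1. On the deposited scale the genotypes overlapped for both genes.

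AT3G09850, which carries a G-patch domain typical of RNA-processing proteins, differed on that scale. It stood at 16.2, 12.4, 19.0, 14.0 and 18.4 in WT and at 44.8, 28.8, 27.9, 26.0 and 29.0 in atpc1-1. Every atpc1-1 replicate lay above every WT replicate. Its within-column rank hardly moved, from the 99.4th percentile to the 99.5th, and it moved from place 4 to place 2 among the 47.

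Next came AT3G47650, a DnaJ-type zinc finger protein that acts in the assembly of Rubisco, the CO2-fixing enzyme. Its intensity was 8.0 ± 2.07 in WT and 5.56 ± 1.86 in atpc1-1 (SD, n = 5 each). AT3G13150, a pentatricopeptide repeat protein of the family that binds organelle RNA, stood at 5.98 ± 1.03 and 5.81 ± 1.72. The remaining genes of the 10 with the highest mean rank were AT5G46560 at 5.58 ± 1.32 and 4.58 ± 1.17, the kelch-repeat F-box gene AT4G39760 at 5.0 ± 0.648 and 4.87 ± 1.53, AT4G31470, and the glycosyltransferase AT4G19900. At the other end, AT2G40980, AT2G37510 and AT5G06790 lay just inside the rule, with lowest percentiles of 80.2, 80.4 and 81.2, each in WT column 2. CML30, AT2G33180 and AT1G54500 lay just outside it, at 79.8, 79.2 and 78.3 in their lowest columns.

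**Figure D1:**
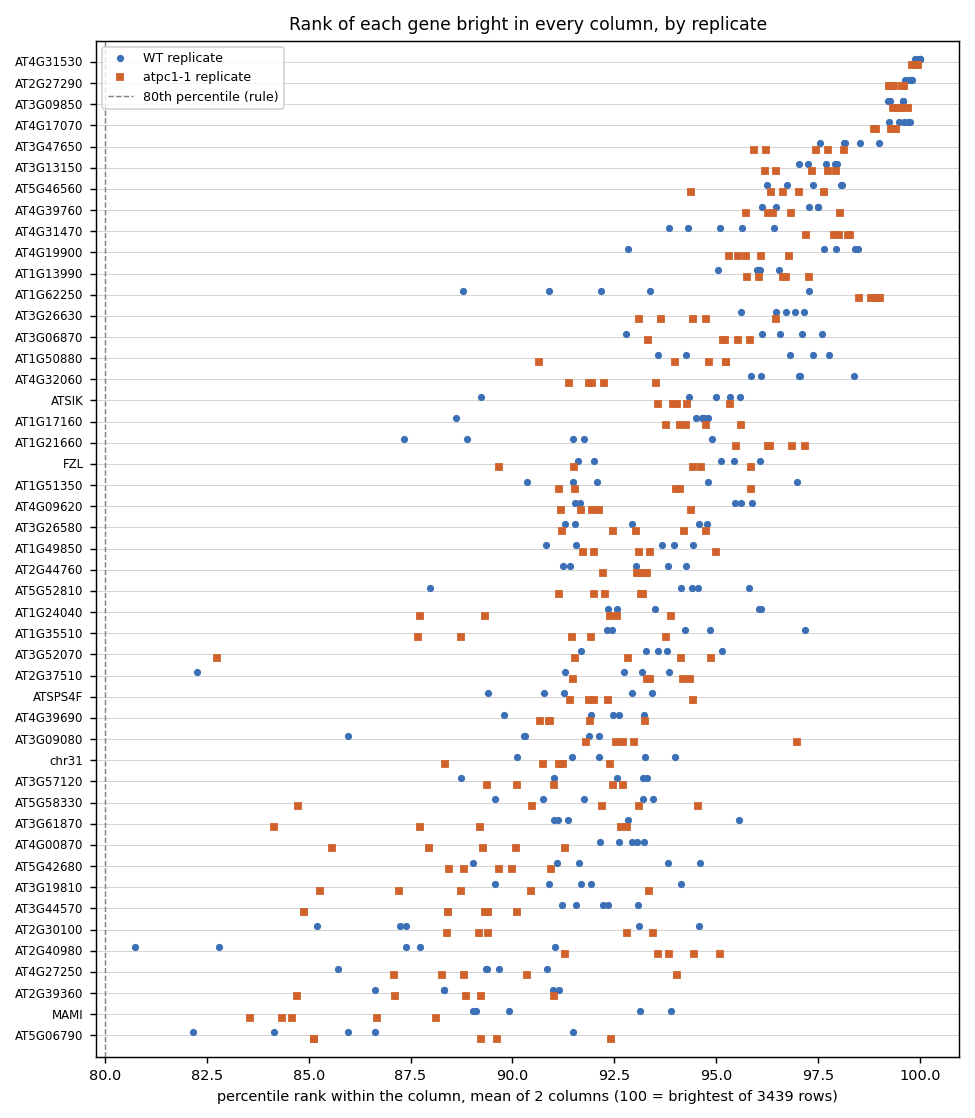
Percentile rank within the column (horizontal axis, 100 the brightest row) of the 47 genes, ordered by mean rank, with 5 WT replicates as circles and 5 atpc1-1 replicates as squares. The 4 top genes stay above the 98th percentile in every replicate, and the squares of AT1G62250, AT1G21660, AT4G31470 and AT2G40980 lie to the right of all their circles.

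The genotypes were compared on log2 intensities after quantile normalisation, which gives all columns about the same distribution, with limma fitted to all 3298 testable rows and Benjamini-Hochberg adjustment over them. A row was called at an adjusted p under 0.05. Of the 47 genes 4 were called higher in atpc1-1, 7 were called lower and 36 did not pass, so 23.4% were called, against 24.5% of all rows tested. The rates of all rows were 10.2% higher and 14.3% lower. The median log2 difference (atpc1-1 minus WT) was -0.32 over the 47 genes and -0.19 over all rows. The rule kept only rows that stayed in the top 20% in both genotypes, which bounds how far a kept gene can differ, so nothing is read from these shares.

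The scaling of the columns decided most of this balance. With each column centred on its median, 19 of the 47 genes were called higher and 0 lower, against 15.1% and 12.2% of all rows. The median log2 difference of the 47 was 0.84. At an unadjusted limma p under 0.05, 28 were higher and 0 lower, and the share of all rows at that cutoff was not computed. With columns centred on the 330 rows bright in all columns, 5 were called higher and 7 lower, against 4.18% and 52% of all rows, with a median of -0.25. Only the 4 rises were called in the same direction under all 7 alternative scalings and treatments of dim rows. Median centring called 175 of the 330 bright rows higher and 0 lower, so no lower call among them could hold under all 7. The share of all rows that kept a call under all 7 was not computed.

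AT1G62250 rose most among the 47. Its intensity was 1.77, 1.97, 2.11, 2.46 and 5.87 in WT and 12.7, 9.56, 9.39, 11.9 and 19.2 in atpc1-1. Every atpc1-1 replicate lay above every WT replicate, and WT replicate 5 was the highest in WT. After normalisation it rose 4.35-fold (limma adjusted p = 0.00448), its log2 level being 1.30 ± 0.74 in WT and 3.42 ± 0.23 in atpc1-1 (SD, n = 5 each). Among the 47 it went from place 25 to place 5. The call held with any replicate left out.

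AT1G21660, which encodes a J-domain protein, a class of partners of Hsp70 chaperones, rose 2.14-fold. It stood at 1.61, 1.71, 1.94, 2.09 and 3.49 in WT and at 3.39, 4.38, 4.32, 4.23 and 5.91 in atpc1-1. On this deposited scale the lowest atpc1-1 replicate lay just under WT replicate 5. Its log2 difference was 1.1 (SE 0.29, limma adjusted p = 0.0216), and it went from place 40 to place 11. The call was lost without WT replicate 1 or 2, at a limma adjusted p of up to 0.0584.

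AT4G31470, of the CAP family of secreted proteins that includes pathogenesis-related protein PR-1, rose 1.94-fold. WT replicates stood at 2.74, 2.88, 2.98, 3.57 and 4.60 and atpc1-1 replicates at 5.89, 7.31, 7.14, 7.64 and 8.79, with no overlap. The log2 difference was 0.96 (SE 0.24, limma adjusted p = 0.0185), and the place changed from 15 to 6. Without WT replicate 2 the limma adjusted p was 0.0524.

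AT2G40980, a protein kinase, rose 1.95-fold, from 1.15, 1.21, 1.47, 1.51 and 1.99 in WT to 1.73, 2.59, 2.54, 3.11 and 2.29 in atpc1-1. One atpc1-1 replicate lay below WT replicate 5 on the deposited scale. The log2 difference was 0.97 (SE 0.29, limma adjusted p = 0.0328). It was the dimmest of the 47 in WT, at place 47, and stood at place 19 in atpc1-1. Leaving out a replicate ended the call for 8 of the 10 replicates, all but WT replicate 5 and atpc1-1 replicate 1, with a limma adjusted p of up to 0.0829.

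In all 4 genes that rose, WT replicate 5 was the highest WT replicate and thus the nearest to atpc1-1. Without it the log2 differences were 2.43 for AT1G62250, 1.29 for AT1G21660, 1.06 for AT4G31470 and 1.12 for AT2G40980, with limma adjusted p-values of 0.000266, 0.00570, 0.00942 and 0.0139. Over all 47 genes, WT replicate 5 lay outside the other WT replicates on the atpc1-1 side in 16, and WT replicate 1 also in 16. Outside on the WT side were atpc1-1 replicate 1 in 19 genes and atpc1-1 replicate 5 in 15.

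**Figure D2:**
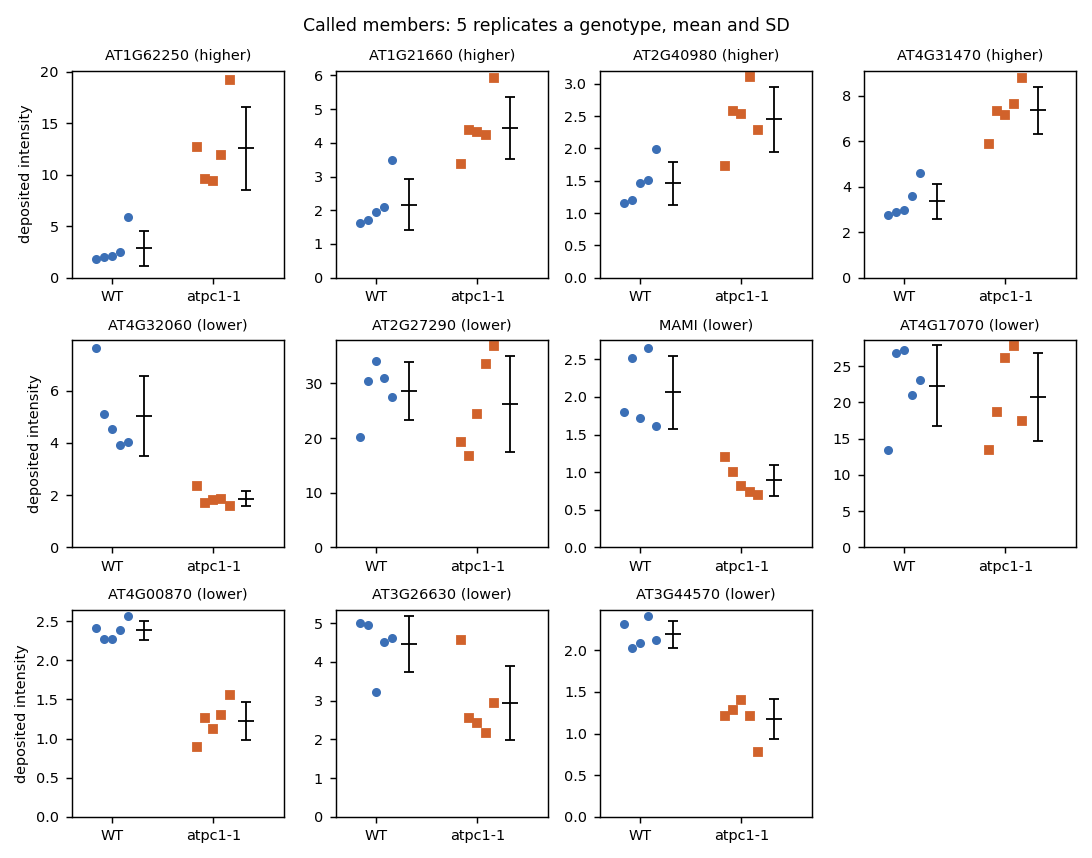
Deposited intensity (vertical axis, linear, from 0) of the 11 called genes in 5 WT replicates (circles) and 5 atpc1-1 replicates (squares), with the mean and SD as a black bar beside each group. The first 4 panels rise and the other 7 are called lower after normalisation, but AT2G27290 and AT4G17070 overlap widely on this deposited scale.

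AT4G32060 fell most. It encodes an EF-hand protein that regulates calcium uptake into mitochondria, and it stood at 7.63, 5.09, 4.54, 3.91 and 4.02 in WT and at 2.36, 1.71, 1.81, 1.85 and 1.57 in atpc1-1. Each WT replicate exceeded each atpc1-1 replicate. It fell 2.72-fold (limma adjusted p = 0.00556), its log2 level being 2.40 ± 0.46 in WT and 0.96 ± 0.12 in atpc1-1 (SD, n = 5 each), and it moved from place 10 to place 30. The call held with any replicate left out and was lost under 1 of the other settings tried, median centring, at -0.24 (limma adjusted p = 0.498).

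MAMI, listed as membrane-associated and mannitol-induced, fell 1.86-fold. Its replicates stood at 1.80, 2.52, 1.72, 2.66 and 1.62 in WT and at 1.20, 1.01, 0.820, 0.740 and 0.701 in atpc1-1, with no overlap. The log2 difference was -0.90 (SE 0.25, limma adjusted p = 0.0272). It was the dimmest of the 47 in atpc1-1, at place 47, against place 41 in WT. The call was lost under median centring, at -0.04, and without WT replicate 2 or 4 or atpc1-1 replicate 3 or 4 (limma adjusted p of up to 0.0726).

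AT4G00870, a transcription factor of the basic helix-loop-helix family, had the tightest WT values of the genes that fell, at 2.42, 2.27, 2.28, 2.39 and 2.56. In atpc1-1 it stood at 0.897, 1.27, 1.12, 1.31 and 1.56, below every WT replicate. The log2 difference was -0.78 (SE 0.23, limma adjusted p = 0.0335). AT3G44570 likewise did not overlap, at 2.31, 2.03, 2.09, 2.41 and 2.12 in WT and 1.21, 1.28, 1.41, 1.21 and 0.774 in atpc1-1 (log2 difference -0.70, SE 0.22, limma adjusted p = 0.0382). The AT4G00870 call survived leaving out WT replicate 5 or atpc1-1 replicate 2 or 5 but none of the other 7 replicates (limma adjusted p of up to 0.0745). The AT3G44570 call survived leaving out WT replicate 5 or atpc1-1 replicate 2 but none of the other 8 (limma adjusted p of up to 0.0871). Under median centring their differences were 0.19 and 0.24, and with zeros ranked both calls were lost (limma adjusted p = 0.0515 and 0.0833). With cyclic loess the AT3G44570 call was lost too (limma adjusted p = 0.0614), whereas AT4G00870 kept its call (limma adjusted p = 0.0460). Both calls were also lost with the replicate number as a block.

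AT3G26630, a repeat protein of the pentatricopeptide type, fell by 0.78 on the log2 scale (SE 0.24, limma adjusted p = 0.0381). It stood at 5.0, 4.95, 3.22, 4.52 and 4.63 in WT and at 4.56, 2.56, 2.43, 2.17 and 2.93 in atpc1-1, where replicate 1 lay within the WT range. Its call held under 1 of the 7 alternatives and survived leaving out only WT replicate 5 or atpc1-1 replicate 1, with a limma adjusted p of up to 0.0880 otherwise.

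Both remaining calls depended on the scaling. AT2G27290 differed by -0.92 on the log2 scale (SE 0.24, limma adjusted p = 0.0196) and AT4G17070 by -0.88 (SE 0.28, limma adjusted p = 0.0408). With bright-row centring AT2G27290 stood at -0.11 and AT4G17070 at -0.05, and neither was called on the deposited scale. Median centring reversed AT4G17070, which was then called higher, at 1.05 (limma adjusted p = 0.0455). AT2G27290 stood there at 0.99 (limma adjusted p = 0.0683). Of the 7 alternatives, the AT2G27290 call held under 3 and the AT4G17070 call under 2. AT2G27290 was also lost without WT replicate 2 or 3 (limma adjusted p of up to 0.0524), and AT4G17070 without WT replicate 2, 3 or 4 or atpc1-1 replicate 1 or 5 (limma adjusted p of up to 0.0998). AT3G09850 went the other way, with 0.13 after quantile normalisation (limma adjusted p = 0.732) and 1.02 with bright-row centring (SE 0.25, limma adjusted p = 0.00696).

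**Figure D3:**
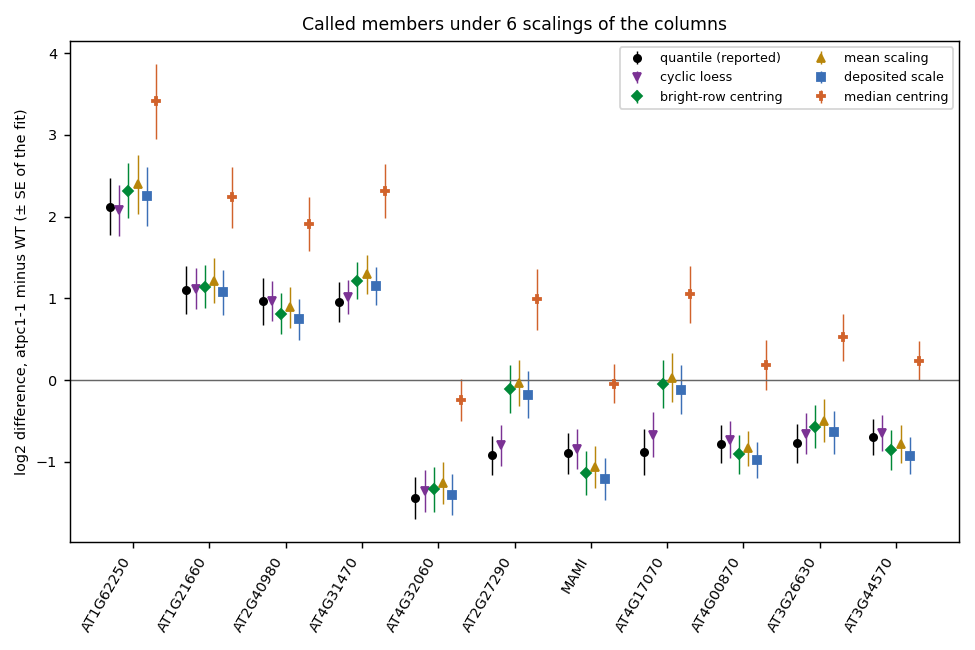
Difference between atpc1-1 and WT in log2 intensity (vertical axis, positive where atpc1-1 is higher; bars are limma standard errors) for the 11 called genes under 6 scalings of the columns. AT1G62250, AT1G21660, AT2G40980 and AT4G31470 stay above 0 under all 6, whereas every gene called lower but AT4G32060 and MAMI turns positive under median centring.

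Ranks within a column do not depend on a factor that multiplies the whole column. In 4 of the 47 genes every atpc1-1 replicate ranked above every WT replicate, against 11.1% of all rows, and in 5 every atpc1-1 replicate ranked below, against 7.44% of all rows. The 4 were the genes that rose, with mean percentiles going from 85.9 to 93.7 in AT2G40980, from 92.5 to 98.8 in AT1G62250, from 90.9 to 96.4 in AT1G21660 and from 95.1 to 97.9 in AT4G31470. The 5 were MAMI, from 91.0 to 85.5, AT4G32060, from 96.9 to 92.2, AT4G00870, from 92.8 to 88.8, AT3G44570, from 92.1 to 88.4, and AT2G27290, from 99.7 to 99.4. Since ranks within the column also chose the genes, these ranks are a description, with no test. Without WT replicate 5, AT4G19900 and AT5G42680 also ranked below WT throughout.

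Of the genes whose rank changed most without such a separation, AT3G09080, a WD40 repeat protein, went from the 90.1st to the 93.4th percentile. Its atpc1-1 intensity was 1.83, 1.97, 2.03, 1.97 and 5.39 against 1.5, 1.88, 1.75, 2.11 and 2.29 in WT, with 1 atpc1-1 replicate far above the rest (log2 difference 0.46, limma adjusted p = 0.315). AT2G37510, an RNA-binding protein, changed by 2.68 percentile points, AT5G06790 by 2.22, the pentatricopeptide gene AT2G30100 by 1.14, the ribokinase-type gene AT1G17160 by 1.04 and the sucrose-phosphate synthase gene ATSPS4F by 0.849. None of these 6 was called. Single replicates weighed heavily in these changes: without WT replicate 1, AT2G37510 changed by 0.585 and AT1G17160 by -0.164. AT2G30100 ranged from 0.0640 without WT replicate 3 to 2.40 without WT replicate 5, AT5G06790 from 1.20 without atpc1-1 replicate 5 to 3.57 without WT replicate 5, and ATSPS4F from 0.310 without WT replicate 2 to 1.32 without WT replicate 4.

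On the falling side, the O-fucosyltransferase-type gene AT1G35510 changed by -3.48 percentile points, AT3G61870 by -3.06 and the acetyltransferase gene AT1G24040 by -2.93. AT3G19810 changed by -2.63, AT5G42680 by -2.47 and AT3G52070 by -2.27. Without atpc1-1 replicate 5 the AT3G52070 change was -0.148 and that of AT3G61870 -1.77, and without atpc1-1 replicate 4 that of AT3G19810 was -1.70. Their limma adjusted p-values lay between 0.0575 for AT1G35510 and 0.329 for AT3G52070, so none was called. Without WT replicate 5, 4 of the 47 genes were called higher and 11 lower, and over all rows 29.2% were called and 16.5% were called lower. AT1G35510 and AT5G42680 then passed, at -0.97 and -0.72 on the log2 scale (limma adjusted p = 0.0398 for each). AT4G19900 also passed, at -1.12 (limma adjusted p = 0.00643) against -0.77 (limma adjusted p = 0.141) with all replicates. Its WT replicates stood at 7.70, 6.07, 7.79, 6.43 and 2.53, with replicate 5 far below the others and under all 5 atpc1-1 replicates, which lay between 3.03 and 4.97.

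**Figure D4:**
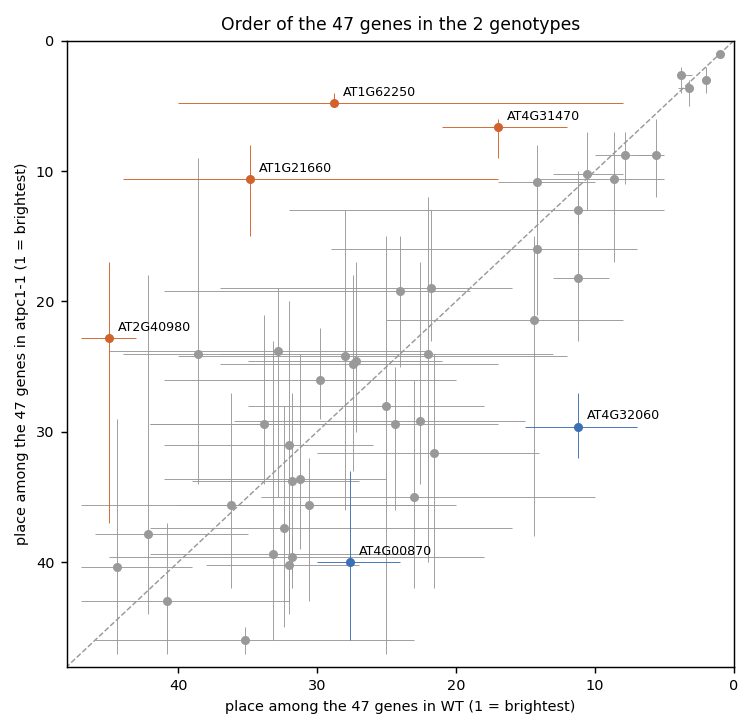
Place among the 47 genes in WT (horizontal) and in atpc1-1 (vertical), 1 being the brightest; points are means over 5 replicates and lines run from the lowest to the highest place. The 4 labelled genes above the dashed line of equal place and the 2 below it have places that do not overlap between genotypes, while most others have wide, overlapping lines. Places exist only within the 47 genes, so these counts have no share over all rows beside them.

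The order of the 47 genes was kept in part. Across the genes, mean WT rank and mean atpc1-1 rank correlated at Spearman rho 0.675 (n = 47 genes on the same arrays), against 0.813 over the 330 bright rows. Of 1081 pairs of genes, 414, or 38.3%, had the same order in all 10 replicates, against 52.2% of the pairs among the 330 rows. In 18 pairs, or 1.67%, one gene was above the other in all 5 WT replicates and below it in all 5 atpc1-1 replicates, against 2.05% of the pairs among the 330 rows. AT2G40980 was in 5 of the 18, AT1G21660 in 4, and AT1G62250 and AT4G32060 in 3 each. AT1G62250, for instance, lay below AT3G47650 and AT3G13150 in every WT replicate and above both in every atpc1-1 replicate. The count was 53 without WT replicate 5, or 4.90%, against 5.47% of the pairs among the 330 rows. Without atpc1-1 replicate 1 it was 38, or 3.52%, against 2.95%. Rank correlations over the 47 genes were 0.598 to 0.886 among WT replicates 1 to 4 and 0.55 to 0.679 between them and WT replicate 5. With atpc1-1 they were 0.663 to 0.847 for WT replicate 5 and 0.268 to 0.7455 for WT replicates 1 to 4. The median was 0.643 between the genotypes, 0.677 within WT and 0.819 within atpc1-1.

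Read by role, no group had all of its genes called. Calls here are those after quantile normalisation, by which 10.2% of all rows were called higher and 14.3% lower. Among the 7 genes of RNA handling and gene expression 2 were called lower (AT3G26630 and AT4G00870) and 5 did not pass, with a median log2 difference of -0.32. These 5 include chr31, a chromatin remodeller, at -0.41. Of the 5 genes of protein folding and turnover AT1G21660 rose, AT4G17070 was called lower and 3 did not pass, AT3G47650 being at -0.76 (limma adjusted p = 0.0648). The AT4G17070 call held under 2 of the 7 alternative scalings and was reversed under median centring. Of 4 kinases only AT2G40980 was called, and the others, ATSIK, AT2G39360 and AT3G57120, stood at -0.14, -0.27 and -0.28. None of the 3 genes of carbon metabolism passed: ATSPS4F, which makes the precursor of sucrose, stood at -0.02, AT5G58330, the NADP-dependent malate dehydrogenase that exports reducing power from chloroplasts, at -0.22, and AT1G17160 at 0.03.

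Of the mitochondrial genes AT4G32060 fell, and AT4G39690, a mitofilin that shapes the inner membrane, stood at -0.25 (limma adjusted p = 0.438). Among the membrane genes MAMI fell, and FZL, a dynamin-like protein of thylakoid organisation, stood at -0.33 (limma adjusted p = 0.495). The 4 other enzymes, among them AT5G52810, which acts in pipecolic acid synthesis, had values between -0.74 and -0.03, and none passed. None of the 3 repeat proteins passed, with values from -0.16 to 0.46. The 14 genes without a role held 1 rise (AT1G62250) and 2 genes called lower, AT2G27290 and AT3G44570. Those 2 calls held under 3 and 4 of the 7 alternative scalings.

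Replicates of a genotype spread about equally in both. After centring each replicate on the median of the 47 genes, the median SD over genes was 0.314 in WT and 0.341 in atpc1-1 on the log2 scale. For the 1431 dimmer rows with a value in every column it was 0.393 and 0.571. Within genotypes some genes varied together over the 10 replicates, as deviations from the genotype mean: AT4G31470 with AT1G21660 at Pearson r = 0.960, AT4G17070 with AT2G37510 at 0.955, and AT4G19900 with AT4G31530 at 0.952. AT4G17070 and AT3G26630 varied oppositely, at -0.955. These pairs were picked because they are close, from replicates that share arrays, and are given as a description.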

How the data were processed

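The authors deposited 1 intensity per row and sample on a linear scale. For background correction, scaling and filters, the sources used here give no account. Values were never negative, 0 was read as missing, and the highest value in the table was just under 100. Gene names came from the platform annotation, updated through RefSeq's gene table (TAIR10.1), which held all 47 genes. Only rows with 1 gene are named. Promoter and protein sequences were not used here.

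Log2 values were quantile normalised and averaged over partner columns, and genotype was tested with limma 3.58.1 in R 4.3.3 (lmFit and eBayes, two-sided) on rows with a value in at least 3 of 5 replicates of each genotype. The fit was also run on rows simulated from the normalised means and spreads. Those rows held no difference in scale between the genotypes, so they cannot show how the calls depend on the scaling. Intensities per replicate in the text are geometric means of 2 columns on the deposited scale. The number of arrays sets the precision.

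The genes and lists were chosen with earlier results of these data known. Values in full were given for the 10 genes with the highest mean rank, the 10 with the largest rise and the 10 with the largest fall in rank, and all called genes, 30 in all; further genes are named only by role. Roles were assigned after the genes were known. Same-numbered replicates of the genotypes correlated at 0.275, 0.224, 0.0297, 0.0338 and 0.355, so the numbers were not taken as pairs.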

Additional observations from a re-analysis of the deposited data

Results flagged for a closer look

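The 5 replicates of each genotype were looked at in each of the 30 genes described in full, 60 groups in all, for a replicate far from the others. Of these, 4 held one, where about 3 would arise by chance at 1 in 20. The measure divides the gap between that replicate and its nearest neighbour by the spread from lowest to highest, on normalised log2 values.

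In AT1G17160 the share was 0.925, with WT replicate 1 lowest at 0.57 and the other WT replicates between 1.6 and 1.68. In AT2G37510 it was 0.767, with atpc1-1 replicate 1 lowest at 0.71 against 1.24 to 1.40. In AT4G19900 it was 0.737, with WT replicate 5 lowest at 1.23 against 2.68 to 3.20. In AT5G42680 it was 0.736, with atpc1-1 replicate 4 lowest at 0.37 against 0.55 to 0.62.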

How the results depend on the processing

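In the whole table, counts of calls moved most with the scaling: the deposited values gave 126 higher and 1896 lower calls, mean scaling gave 150 and 1666, and bright-row centring gave 138 and 1716, against 337 and 471. Ranking the zeros gave 597 higher, cyclic loess 293 lower, rows above 0 in all columns 311 lower, and all 10 columns as samples 516 and 827. Of the 47 genes, median centring called 19 higher and 0 lower, against 497 and 403 of 3298 rows tested. Mean scaling, cyclic loess and ranked zeros each called 4 of the 47 lower, against 1666, 293 and 466 rows of the whole table. All 10 columns as samples called 20 of the 47 lower, against 827 of 3086 rows tested. With the pair as a random block they called 14 of the 47 lower, against 500 of 3086 rows. The top 10% in place of the top 20% left 20 genes, and all 10 columns left 9 reversed pairs.

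With a replicate left out, 194 to 417 rows were called higher and 258 to 540 lower, 1 to 4 of the 47 genes higher and 1 to 11 lower. Between 18 and 53 pairs reversed, 4 to 5 genes ranked above WT throughout and 5 to 7 below, the last pair of ranges being added after the data were seen. For genes ranked above or below throughout, the share of all rows was computed only with all replicates. Without WT replicate 2, 1 of the 47 genes was called in each direction, and of all 3281 rows tested 194 were called higher and 259 lower. With the replicate number as a block, 317 rows were called higher and 415 lower, and 4 and 6 of the 47 genes. That block ended the calls of AT4G00870 and AT3G44570 and added AT1G35510, and same-numbered samples correlated best with each other for 3 of 5 numbers.

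Median centring turned 35 of the 47 genes to positive log2 differences, 19 of them among the 30 genes given in full, to which the values below are limited. These were 1.27 in AT4G31530, 0.99 in AT2G27290, 1.05 in AT4G17070, 0.61 in AT3G47650, 1.08 in AT3G13150, 0.87 in AT5G46560, 1.09 in AT4G39760, 0.59 in AT4G19900, 0.52 in AT3G26630, 0.36 in AT1G24040, 0.25 in AT1G35510, 0.61 in AT3G52070, 0.99 in ATSPS4F, 0.35 in AT3G61870, 0.19 in AT4G00870, 0.40 in AT5G42680, 0.38 in AT3G19810, 0.24 in AT3G44570 and 0.84 in AT2G30100. AT4G31530 also turned on the deposited scale (0.11), with mean scaling (0.25) and with bright-row centring (0.18). Mean scaling also turned AT4G17070 (0.029), AT3G13150 (0.066) and AT4G39760 (0.066). ATSPS4F turned with cyclic loess (0.017), ranked zeros (0.14) and rows above 0 (0.10), and AT2G30100 with the latter pair (0.096 and 0.045). AT5G06790 turned on the deposited scale (-0.30), with mean scaling (-0.16) and with bright-row centring (-0.23). With a replicate left out, AT1G17160 ran from -0.19 to 0.10, AT2G37510 from -0.033 to 0.35, ATSPS4F from -0.10 to 0.067, AT2G30100 from -0.20 to 0.16 and AT5G06790 from -0.066 to 0.26. The cause of these changes was not tested.

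The median log2 difference of all rows was -0.19, and -1.22 on the deposited scale, -1.08 with mean scaling, -1.14 with bright-row centring and -0.05 with median centring. Of the 47 genes it was -0.32, and -0.32, -0.18, -0.25 and 0.84 in that order.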
